A study of Mus musculus with 44 samples.

Results

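The core peaks were the N6-methyladenosine (m6A) peaks of control mouse liver that were also present after each of 3 exposures to polychlorinated biphenyls (PCBs). A control peak was chosen by overlap: its span had to share 1 bp or more with a peak in each of the 3 exposed lists, chromosome and strand being equal. Of the 620 control peaks called against input, 283 met this rule, which is 45.65% (Wilson 95% interval 41.76 to 49.58, counting error only). They lay at 152 loci, of which 135 carried a gene symbol, and 26 core peaks at 17 loci had none.

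The animals were male C57Bl/6J mice, an inbred strain, and all 4 groups ate a high-fat diet (42% of calories as fat), so every value describes the fatty-diet liver. The control group received vehicle, and the other groups received Aroclor1260, PCB126, or Aroclor1260 + PCB126 (the combination), by mouth in 1 dosing at week 2 of a study of 12 weeks. Aroclor1260 is a trade mixture of heavily chlorinated congeners, and PCB126 is 1 dioxin-like congener and a ligand of the aryl hydrocarbon receptor. The sources used here give neither doses nor ages. RNA was immunoprecipitated with an m6A antibody (MeRIP), with 5 m6A and 5 input libraries per treatment and 1 IgG library from pooled material.

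Each list was called on a whole treatment. No value for a single animal was analysed here, so no result below has a replicate error, and no difference between lists could be set against the spread between mice. The lists called against input held 620 peaks (control), 506 (Aroclor1260), 2178 (PCB126) and 2284 (combination). The reads behind each list are unknown, and the length of a list can depend on them. The membership rule used these same lists, so the values below are a description of the members.

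m6A is written onto messenger RNA by a methyltransferase complex, is removed by demethylases, and is read by YTH-domain proteins that bear on splicing, translation and decay. It is commonest in long exons and near stop codons, in a short sequence context that ends in AC followed by A, C or U. A MeRIP peak is a stretch of transcript that the antibody enriched, about as wide as the RNA fragments or wider, and 1 peak can hold several methylated bases. The fold enrichment of a peak is the ratio of m6A immunoprecipitate to input computed by the authors' caller, and its exonic width is the summed length of its exonic blocks.

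Sequence was at hand only in RefSeq's promoter windows of 300 bases (build GRCm38.p6). Part of the 283 core peaks was not searched against these windows. Among those searched, 6 core peaks ran into such a window, over 428 bases. The methylation context was searched in its strongest spelling, GGACT, in its shorter form GGAC, and in the inner GAC, which the longer forms contain. None of the 6 stretches held GGAC or GGACT on the strand of the peak, while GGAC occurred in 20.3% of promoter stretches of the same place and length as that of Amotl2 and in 39.7% for the longest stretch. Amotl2 and ENSMUSG00000044068 had GAC on their own strand, 2 times each, and the copy nearest the middle of the stretch is shown for each, with GAC in capitals, 5′ to 3′ on the peak's strand. They lie in a core peak at Amotl2, a scaffold of the Hippo and junction pathways (chr9:102717812-102717841, plus strand, just past the RefSeq start of the gene), and in one at ENSMUSG00000044068, where the RefSeq genes Commd1 and Zrsr1 overlap (chr11:22972876-22972905, plus strand, in a promoter window of Commd1 read on the other strand).
Amotl2: catcggcgccaccGACtagtgcgcacctcc
ENSMUSG00000044068: cggataaccgagtGACtgcgcaggtaggcg
The Amotl2 peak had the same 101 bp in all 4 lists, with fold enrichments of 1.5 in the control list, 1.33 with Aroclor1260, 2.44 with PCB126 and 2.36 with both. The ENSMUSG00000044068 peak had 5.58, 6.8, 11.8 and 9.67 in the same order. Its widths were 849, 749, 999 and 899 bp. GAC was found on the other strand only, 2 times, in the 100 bases of the core peak at Fmo5, a flavin monooxygenase gene. Of the core peaks searched, this was the sole one held whole by a promoter window of its own gene (3: 97628904 to 97629003).

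Fold enrichment at the core peaks was close in control and Aroclor1260 liver and higher in both lists that included PCB126. The median over the 283 peaks was 2.94 in the control list (quartiles 2 and 4.89), 2.71 with Aroclor1260 (1.80 and 4.67), 5.67 with PCB126 (3.48 and 11) and 5.47 with both (3.58 and 9.5). Over all peaks of each list the medians lay together, at 2.32, 2.13, 2.45 and 2.4. The 4 lists thus had like medians when taken whole and differed at the fixed sites.

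**Figure D1:**
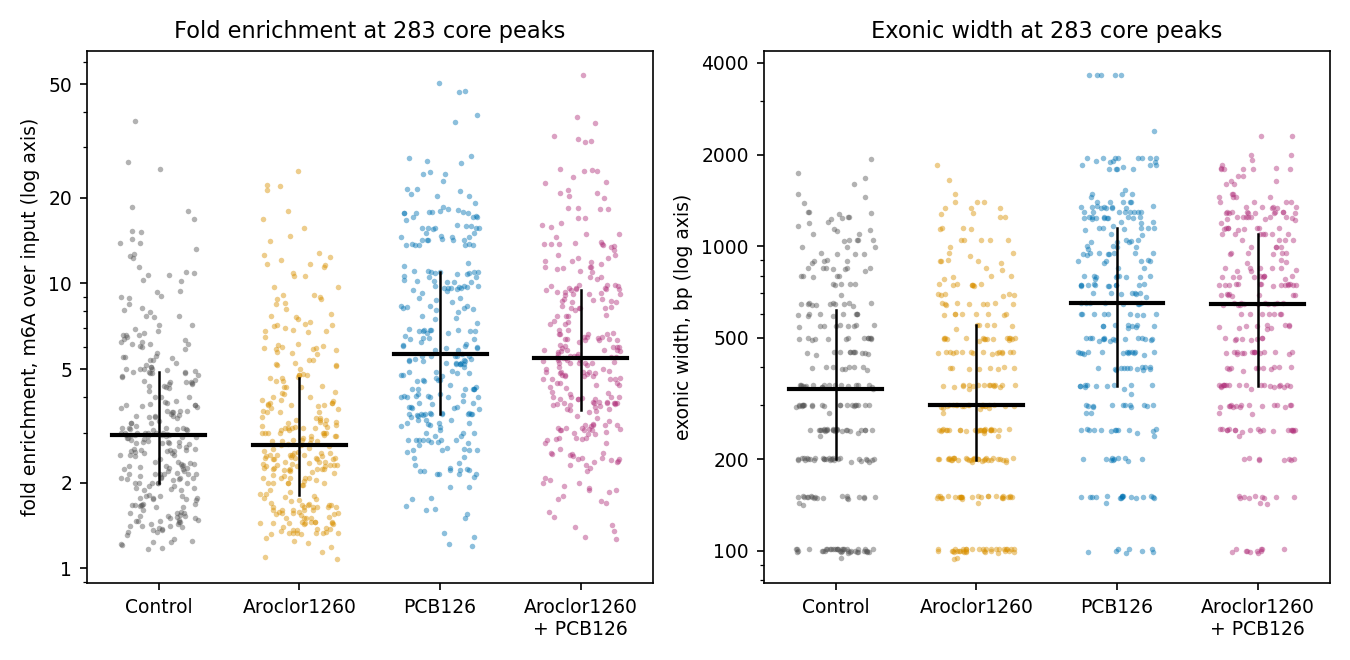
Fold enrichment (left) and exonic width in bp (right) of the 283 core peaks in the 4 lists, each point 1 core peak, the thick bar the median and the thin bar the range between the quartiles, on log axes. The PCB126 and combination medians of 5.67 and 5.47 stand above 2.94 and 2.71, and their widths of 649 and 644 bp stand above 339 and 300 bp.

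At 251 of the 283 core peaks (88.69%), both lists with PCB126 had a higher fold enrichment than both lists without it. No core peak showed the reverse. Every control peak that could be scored this way is a core peak, so there is no wider background for this count. The core peaks are also not separate observations, since only 228 distinct PCB126 peaks and 232 combination peaks stood for all 283. PCB126 gave the highest of the 4 values at 162 peaks, the combination at 114, the control at 6 and Aroclor1260 at 1. The lowest value was that of Aroclor1260 at 147 peaks, of the control at 129, of PCB126 at 4 and of the combination at 3. The highest value exceeded the lowest by a median of 2.29 times (range 1.07 to 14.91).

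Against control, the median ratio of fold enrichment after Aroclor1260 was 0.958, with 124 core peaks above 1 and 152 below. A ratio of at least 1.5 in favour of Aroclor1260 was found at 22 core peaks (7.77%), and one at least as large in favour of control at 36 (12.7%). Over all 310 control peaks found in the Aroclor1260 list the shares were 8.39% and 11.9%, near those of the core peaks. After PCB126 the median ratio was 1.83, with 268 core peaks above 1. The ratio was at least 1.5 at 198 core peaks (69.96%), beside 68.4% of all 547 control peaks found there, and at least 1.5 times lower at 3, beside 0.914%. After the combination the median ratio was 1.71, with 267 core peaks above 1. It was at least 1.5 at 194 core peaks (68.55%), beside 64.4% of all 542 found, and at least 1.5 times lower at 1 peak, beside 0.554%. The core shares lay near the background in all 3 exposures, but that background includes the core peaks themselves. At the found control peaks that were not core, the median ratio was 1.049 after Aroclor1260, from only 27 peaks. It was 1.751 after PCB126 (264 peaks) and 1.579 after the combination (259 peaks). The higher fold in the lists with PCB126 was thus also seen at those other control peaks. The 3 comparisons use the same control list.

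The combination and PCB126 lists were close to each other at these sites. The median ratio of combination over PCB126 was 0.95 (quartiles 0.759 and 1.15), and 219 of 283 peaks lay within 1.5 times in either direction. The ratio of fold to control also held a like size whatever the control value. Among the 94 core peaks with the lowest control fold (1.17 to 2.25) the PCB126 median ratio was 1.82, among the next 94 it was 1.77, and among the 95 highest (4 to 37.3) it was 1.93. For Aroclor1260 the same 3 classes gave 1.04, 0.876 and 0.884. The ratio of exonic width did not hold its size: from the lowest to the highest class its median was 2.49, 1.64 and 1.08 with PCB126, and 2, 1.53 and 1.05 with the combination.

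Core peaks were wider in both lists with PCB126. The median exonic width was 339 bp in the control list, 300 bp with Aroclor1260, 649 bp with PCB126 and 644 bp with both, while the medians of the whole lists were 201, 200, 201 and 200 bp. The median ratio of width to control was 1 with Aroclor1260, 1.49 with PCB126 and 1.33 with both. After Aroclor1260, 44 core peaks were at least 1.5 times wider and 63 at least 1.5 times narrower, beside 16.5% and 21.6% of all control peaks found in that list. After PCB126 the counts were 134 and 11, beside 55.9% and 3.47%. After the combination they were 127 and 14, beside 51.3% and 4.98%. As shares of the core peaks, wider calls came to 47.35% and 44.88% in the last pair of lists, below the background.

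Peaks that were separate in the control were often joined in the lists with PCB126, and less often with Aroclor1260. Of the core peaks, 120 lay under a PCB126 peak that covered more than 1 control peak, 106 under such a combination peak and 43 under such an Aroclor1260 peak. The reverse, a core peak that met several exposed peaks, was found at 37 core peaks for Aroclor1260, 24 for PCB126 and 27 for the combination. The 283 core peaks were matched by 263 distinct Aroclor1260 peaks, 228 PCB126 peaks and 232 combination peaks. With every overlapping peak counted, the numbers were 299, 247 and 253. Where each core peak met 1 exposed peak and that peak met no other control peak, the median width ratio was 1 after Aroclor1260 (211 peaks), 1.027 after PCB126 (148 peaks) and 1 after the combination (164 peaks). The fold ratios at these sites were 0.958, 1.67 and 1.61. The width difference was thus small at 1-to-1 sites, and most of the fold difference was present there. At 120 core peaks the match was 1 to 1 in all 3 exposed lists at once, and at 107 of these both lists with PCB126 were above both others.

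**Figure D2:**
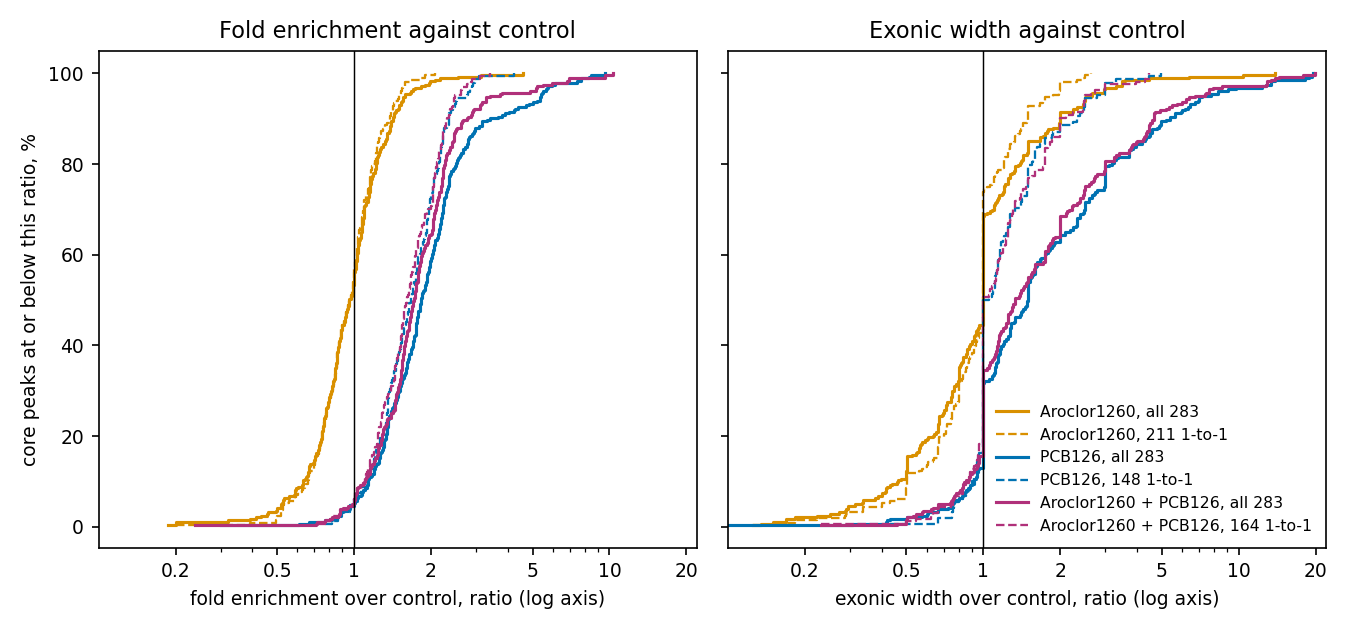
Cumulative percent of core peaks (vertical axis) at or below each ratio to control of fold enrichment (left) and of exonic width (right), on log axes. Solid lines hold all 283 core peaks, with median fold ratios of 0.958, 1.83 and 1.71, and dashed lines hold the 211, 148 and 164 peaks matched 1 to 1, whose width medians are 1, 1.027 and 1.

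The strictest match is a peak with the same first base, last base and exonic width in both lists. There were 61 such core peaks for Aroclor1260, with a median fold ratio of 1.02, and 31 of them lay above 1. For PCB126 there were 51, with a median of 1.61 (quartiles 1.23 and 2.05) and 46 above 1. For the combination there were 50, with a median of 1.47 and 47 above 1. At 19 core peaks, from 13 loci, the coordinates were the same in all 4 lists. Their median fold enrichments were 2.91 in the control list, 3.13 with Aroclor1260, 6.25 with PCB126 and 5.26 with both, and both lists with PCB126 were the higher ones at 17 of the 19.

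These 19 included 4 peaks at Apoa5, which encodes an apolipoprotein that lowers plasma triglyceride. Those on the plus strand overlap those on the minus strand, and whether both carry the same reads was not tested. The largest covered 1484 bp of exon (9: 46269119 to 46271128, plus strand) and read 7.17, 9.08, 16 and 16.3 in the list order used throughout (control, Aroclor1260, PCB126, then both compounds). Crp, the gene of C-reactive protein, had the same 1248 bp in each list, with 10.3, 8.96, 22.8 and 15.8. The linker histone gene H1f0 had the same 881 bp, with 5, 4.79, 10.8 and 8.21. In each of these the values with PCB126 were above both others. Usp10, a deubiquitinase gene, had 996 bp and read 9.39, 11.4, 27.9 and 11.7, so here the combination stood near the Aroclor1260 value and only PCB126 was far above. Reep6, an endoplasmic reticulum membrane protein gene, varied least of the set that had a symbol, with 1.81, 1.61, 1.93 and 2.

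The most enriched core peaks belonged to Jund, Gid8, Bmp2, Agtr1a, Bhlhe40, Ubtd1, Herc2, Rnf144b, Fga and Hs6st1, ranked by the geometric mean of the 4 fold enrichments. Jund (8: 70699047 to 70700322, plus strand) had 37.3 in the control list, 24.9 with Aroclor1260, 50.5 with PCB126 and 53.9 with both, at widths of 1276, 1276, 1129 and 1227 bp. Gid8, a subunit of the CTLH ubiquitin ligase (2: 180717846 to 180718339), had 25.2, 21.9, 36.9 and 36.5, at 494 bp in every list but Aroclor1260, where it had 445 bp. Herc2, a very large ubiquitin ligase gene (7: 56229816 to 56231301), had 13.9, 14.1, 21.5 and 38.4. All 10 had both values with PCB126 above both without, and Aroclor1260 was above the control at 5 of the 10.

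**Figure D3:**
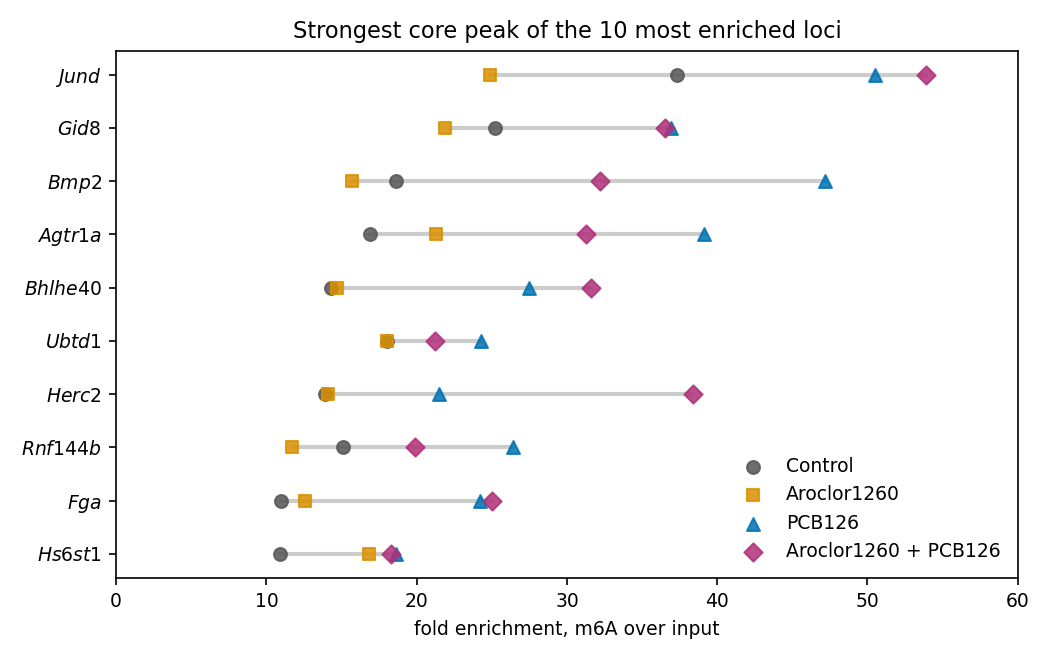
Fold enrichment (horizontal axis, m6A over input) of the strongest core peak at the 10 most enriched loci, with 1 marker per list and a grey bar from the lowest to the highest. In each row the PCB126 and combination markers lie right of both others, as at Bmp2 with 47.2 and 32.2 against 18.6 and 15.7.

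Role groups, made by hand from known functions after the members were known, held 98 of the 152 core loci. The roles of the other control peaks were not counted, so the size of a group has no background. Beside 21 loci of metabolic enzymes and carriers, genes of transcriptional control formed the largest role group, with 22 loci and 51 core peaks. Their median fold enrichments were 3.1 in the control list, 3 with Aroclor1260, 10.9 with PCB126 and 6.4 with both, beside 2.94, 2.71, 5.67 and 5.47 over all core peaks. The median ratios to control were 1, 2.18 and 1.86, beside 0.958, 1.83 and 1.71. Both lists with PCB126 were above both others at 44 of the 51 peaks, near the 88.69% over all core peaks. Many of the PCB126 values in this group come from 1 wide peak that stands for several core peaks, as at Bcl9l, Zfp281 and Hexim1.

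Among immediate early genes, Myc, the growth-promoting transcription factor, read 8.93, 7.72, 21.4 and 18.2 at a control peak of 643 bp (15: 61989436 to 61990078). Its matching peak was 1137 bp wide after Aroclor1260, 1532 bp after PCB126 and 149 bp after the combination, so the combination had a high fold over the narrowest peak. Klf2, a shear-responsive factor of endothelium, read 4.78, 7.33, 10.5 and 14.9, in ascending order from control to combination. Klf9, a glucocorticoid-responsive factor, had a strong peak at 12.5, 11.6, 15.5 and 14.9 that varied little. A second Klf9 peak, across an intron, read 5.17, 7.11, 13.6 and 11.3. The minus-strand identifier at Jund had 26.7, 22.1, 47.1 and 32.9 over exonic bases inside the plus-strand peak's span, and whether both carry the same reads was not tested.

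Bhlhe40, a repressor that acts on circadian clock genes, had 3 core peaks, with PCB126 above control and Aroclor1260 at each. Its strongest peak (6: 108664548 to 108665440) read 14.3, 14.7, 27.5 and 31.6, at 893 bp in the lists without PCB126 and 942 bp in those with it. The peak across its intron had the same 199 bp in every list and read 2.2, 2.76, 6.25 and 4.74. The first, of 298 bp, read 2.24, 2.45, 3.2 and 2.37, so its combination value lay between control and Aroclor1260.

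The liver-enriched factors Cebpa, Cebpb, Klf15 and Foxo1 were the core members of the list of 30 hepatocyte transcription factors, of which 7 had any control peak. Cebpa, which drives hepatocyte and adipocyte genes, read 5.08, 2.54, 9.6 and 12.3, with a width of only 249 bp after Aroclor1260 against 846 bp in the control. Klf15, a fasting-responsive factor, read 4.84, 5.26, 9.79 and 8.59. Foxo1, the insulin-restrained activator of gluconeogenic genes, had a core peak with 6.36, 9.73, 11.1 and 9.86, where Aroclor1260 stood near the combination. This peak crossed the long intron in the control and PCB126 lists, and the matching Aroclor1260 and combination peaks lay on its 3′ side alone. A second combination peak, which did not stand for the core peak, also overlapped the control span.

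Cebpb, an acute-phase and adipogenic factor, did not follow the rest. Its plus-strand peak (2: 167689012 to 167690176) read 13.2 in the control list, 2.64 with Aroclor1260, 26.8 with PCB126 and 3.15 with both. The widths were 1165, 534, 1165 and 534 bp, and the combination held a second peak of 244 bp with a fold of 3.07 inside the control span. Against input, the PCB126 and control peaks had the same coordinates, and both Aroclor1260-containing lists had the shorter form. Called against IgG, the plus-strand peak read 9.31, 25.3, 35.3 and 5.97, so the low Aroclor1260 value was seen with input and not with IgG, and the low combination value was seen with both. The widths against IgG were 1165, 1165, 1165 and 922 bp, so the Aroclor1260 peak was as wide as the control peak there. The minus-strand peak at this locus read 2.25, 2.44, 3.21 and 2.96 against input.

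**Figure D4:**
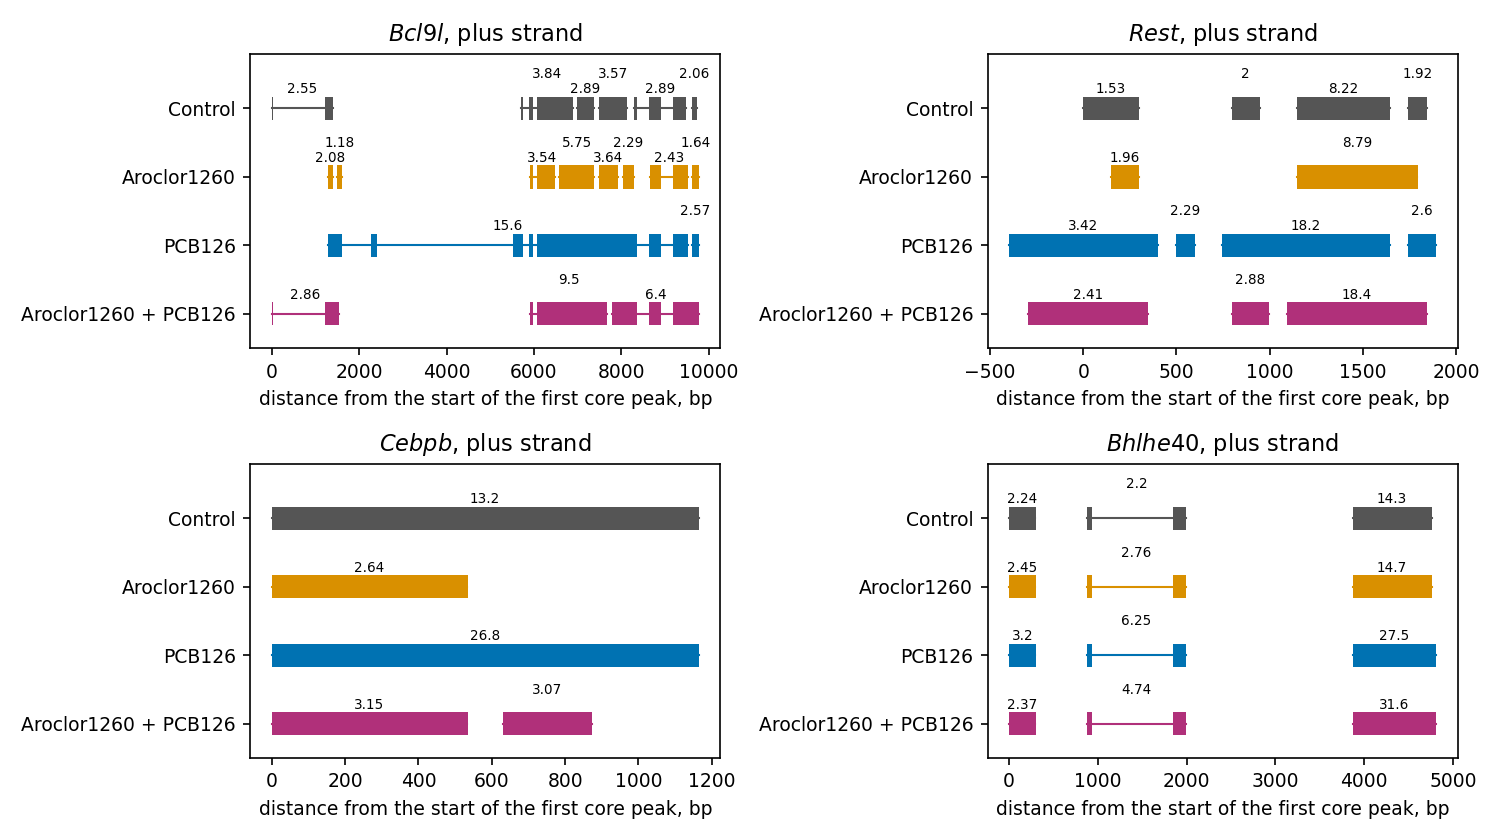
Peaks at Bcl9l, Rest, Cebpb and Bhlhe40 in the 4 lists, by distance in bp from the start of the first core peak, with boxes for exonic blocks, thin lines for introns inside a peak, and the fold enrichment printed above each peak. In the stretch of its core peaks Bcl9l has 6 control peaks and 1 wide PCB126 peak of fold 15.6 with a small one beside it, Cebpb has the short form with 2.64 and 3.15, and the peaks of Bhlhe40 keep their places.

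Bcl9l, a coactivator of beta-catenin, had the most core peaks of any locus, 6, with control folds from 2.06 to 3.84. In the PCB126 list 1 peak of 3650 bp with a fold of 15.6 covered 5 of them. Between the first and the last of the 6 core peaks, the combination had 3 peaks, of fold 2.86, 9.5 and 6.4, and Aroclor1260 had 8, of fold 1.18 to 5.75. Over the whole locus the lists held 6, 10, 4 and 4 peaks. Rest, the repressor of neuronal genes, had a strong peak with 8.22, 8.79, 18.2 and 18.4. The core peak of 101 bp beside it (5: 77282896 to 77282996) was part of the strong peak after Aroclor1260 and the combination and separate in the others, and so read 1.92, 8.79, 2.6 and 18.4. Hexim1, an inhibitor of the elongation factor P-TEFb, had 3 core peaks with control folds of 3, 4.37 and 7.93, all under 1 PCB126 peak of 1798 bp with a fold of 17.1. At such loci the number of core peaks counts the control's own division into peaks.

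Zinc finger genes were represented by Zbtb18, Zfp281, Zfp771 and Zfp809, 4 of the 458 Zfp and Zbtb genes, of which 6 had a control peak. Zfp809, a silencer of retroviral DNA, read 6, 4, 13.8 and 12.6 at its stronger core peak. Zfp281, a regulator of pluripotency genes, read 6.33, 3.12, 11 and 11.2. Zfp771 read 2.75, 2, 2.6 and 3.18, with PCB126 below the control. Zbtb18, a transcriptional repressor, read 3.4, 2.45, 3.5 and 2.42 at its first core peak and 3.09, 2.13, 3.5 and 3.58 at its other. Zfp809 and Zfp281 thus had the common pattern, and Zfp771 and the first Zbtb18 peak did not. Both PCB126 values of Zbtb18 are those of 1 peak of 1349 bp. The Zfp281 value of 11 is that of a PCB126 peak of 1946 bp over 3 control peaks.

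Secreted ligands, receptors and junction proteins made up 14 loci with 21 core peaks, and their median ratios to control were 0.946, 2.07 and 1.73. Bmp2, the endothelial ligand that induces hepcidin in hepatocytes, read 18.6, 15.7, 47.2 and 32.2 (2: 133561059 to 133561454), and its peak was 396 bp wide in the control and 742, 742 and 692 bp in the exposed lists. Called against IgG, the Bmp2 peak read 37.5, 24.9, 40.6 and 39.1, so there PCB126 and the combination stood near the control. Gdf2, which encodes the related ligand BMP9, read 6.9, 7, 13.7 and 14.6. Eng, a co-receptor for such ligands, read 3.7, 5.16, 7.67 and 6.08. Against input, all 3 had the values with PCB126 above both others.

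Agtr1a, the angiotensin II receptor of hepatocytes and vessels, read 16.9, 21.3, 39.1 and 31.3 (13: 30381375 to 30382569). Its Aroclor1260 peak was 150 bp wide beside 1195 bp in the control, the lowest width ratio in that list, 0.126. Sucnr1, the succinate receptor, read 13.9, 11.7, 24.7 and 14, so that the combination nearly equalled the control and PCB126 alone stood apart. Ptprb, the vascular endothelial tyrosine phosphatase, read 7.63, 12.1, 17.7 and 13.4. Cldn3, a tight-junction protein, kept the same 339 bp and read 4.51, 4.13, 8.78 and 5.25. Igfbp4, an insulin-like growth factor binding protein, had the smallest spread of all core peaks, with 1.34, 1.38, 1.29 and 1.35.

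Intracellular signalling genes, many of them feedback inhibitors, made up 12 loci with 24 core peaks, and 22 of these had both PCB126-containing values on top, near the 88.69% over all core peaks. Dusp6, the phosphatase that switches off ERK, had 3 core peaks, of which the strongest read 3.71, 4.55, 6.71 and 7.67. Errfi1, an inhibitor of the EGF receptor, read 3.74, 3.76, 7.51 and 7.7. Trib1, a pseudokinase that promotes the decay of C/EBP proteins, had 4 core peaks, the strongest with 5.48, 4.68, 10.1 and 9.57. The stress gene Gadd45g read 6.62, 8.13, 19.1 and 22.5. Arf6, a GTPase of membrane traffic, differed less, with 12.7, 10.9, 17.3 and 13.8.

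Amotl2 and Arhgap5, a GTPase-activating protein gene, had the largest spreads of all core peaks. At the Amotl2 peak of 201 bp (9: 102731821 to 102732021) the values were 2.6, 1.67, 20.2 and 24.9, and at the Arhgap5 peak of 300 bp (12: 52517752 to 52518051) 3, 1.5, 15 and 20.8. In both lists with PCB126, 1 wide peak covered this and the neighbouring core peak, of 1398 and 1249 bp at Amotl2 and of 1848 and 2298 bp at Arhgap5. Those neighbours read 8.5, 8.45, 20.2 and 24.9 at Amotl2, and 11.4, 5.23, 15 and 20.8 at Arhgap5. The neighbours' ratios were therefore far smaller for the same exposed peaks.

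The group of ubiquitin transfer and removal genes, made by hand after the members were known, had 8 loci and 12 core peaks. The median geometric mean at the strongest peaks of these loci was 15.6, beside 5.48 over all core loci. With members picked by hand, this is no measure of such genes in general. The fixed list of ubiquitin ligases and related genes had 4 core members, Gid8, Rnf103, Spop and Ubtd1. The median ratios of the hand-made group to control were 0.965, 1.6 and 1.38, below those over all core peaks for both lists with PCB126. Ubtd1, which binds ubiquitin-conjugating enzymes, read 18, 18, 24.3 and 21.2 over 198, 99, 149 and 247 bp. Rnf144b, a ubiquitin ligase, read 15.1, 11.7, 26.4 and 19.9. Rnf103, a ligase of the endoplasmic reticulum membrane, read 6.57, 3.86, 14.3 and 9.56. Spop, a substrate adaptor of a cullin ligase, read 4.88, 7.61, 8.04 and 8.74. Trim25, a ligase of antiviral signalling, was one of the few genes highest in the control, with 10.7, 7.82, 8.21 and 7.69 and the same 745 bp in all lists but Aroclor1260.

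Plasma proteins and apolipoproteins had 12 core loci with 19 core peaks, the median ratios to control being 0.98, 1.64 and 1.94. Fga, the fibrinogen alpha chain, was the strongest and read 11, 12.6, 24.2 and 25 over 1678, 1333, 1826 and 1925 bp (3: 83029155 to 83032253). Hp, the haemoglobin scavenger haptoglobin, read 3.09, 2.05, 6.79 and 6 on the minus strand. Kng1, the kininogen gene, read 3.53, 3.18, 4.02 and 6.88, and Cp, the ferroxidase ceruloplasmin, read 2.32, 1.46, 2.78 and 4.74, both highest in the combination. F10, the zymogen of the clotting protease factor X, had low values throughout, with 1.36, 1.55, 2.2 and 2.44. Apoe, the ligand of remnant receptors, read 1.95, 2.31, 6.03 and 4.73, and Apoa1, the main protein of high-density lipoprotein, read 2.28, 2.25, 3.33 and 3.08.

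Metabolic enzymes and carriers made up 21 loci with 36 core peaks, at median ratios of 1.02, 1.76 and 1.66. Hs6st1, a heparan sulphate 6-O-sulphotransferase, read 10.9, 16.8, 18.6 and 18.3, with Aroclor1260 nearer to the lists with PCB126 than to the control. Acsl1, which activates long-chain fatty acids, read 2.94, 2.08, 6.45 and 3.81 at its wide core peak. The small core peak of 100 bp beside it lay inside exposed peaks of 1947 and 1998 bp, which gave the highest width ratios of both lists, 19.47 and 19.98. The glycogen-targeting subunit Ppp1r3b read 6.14, 7.53, 10.5 and 13.7. The mitochondrial gene ND4, a subunit of complex I, read 2.77, 2.29, 3.48 and 8.71 at its stronger core peak, where the combination stood apart. Fmo5 was lowest in Aroclor1260 and highest in the control at the promoter-window peak described above, with 1.47, 1.1, 1.2 and 1.29.

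Genes of the endoplasmic reticulum and secretory pathway made up 9 loci with 21 core peaks, and had the lowest median Aroclor1260 ratio of the role groups, 0.764, beside 0.958 over all core peaks. Of these 21 peaks, 7 were at least 1.5 times lower than control after Aroclor1260 and none was as much higher, beside 36 of all 283 core peaks lower (12.7%). Of the 7, 3 were at Mia2 and 2 at Golga4, which hold 5 core peaks each, and the group was made by hand. The ratios with PCB126 were 1.67 and 1.54. Hspa5, the chaperone BiP, read 4.93, 3.31, 11 and 7.35. Ppp1r15b, which reverses the phosphorylation of the initiation factor eIF2, read 5.39, 5.39, 14.6 and 8.31. Sec62, a translocon subunit, read 5.52, 5.94, 9.66 and 9.82 at its strongest core peak. Mia2, an export factor for large cargo, had 5 core peaks, with Aroclor1260 the lowest list at 4 of them. Golga4, a Golgi tether, also had 5, and its strongest read 6.11, 4.67, 8.3 and 5.38. Another Golga4 core peak had an Aroclor1260 ratio of 0.32, from a control fold of 4.5 and an Aroclor1260 fold of 1.44, while a second Aroclor1260 peak that shares more exonic bases with it read 2.93.

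**Figure D5:**
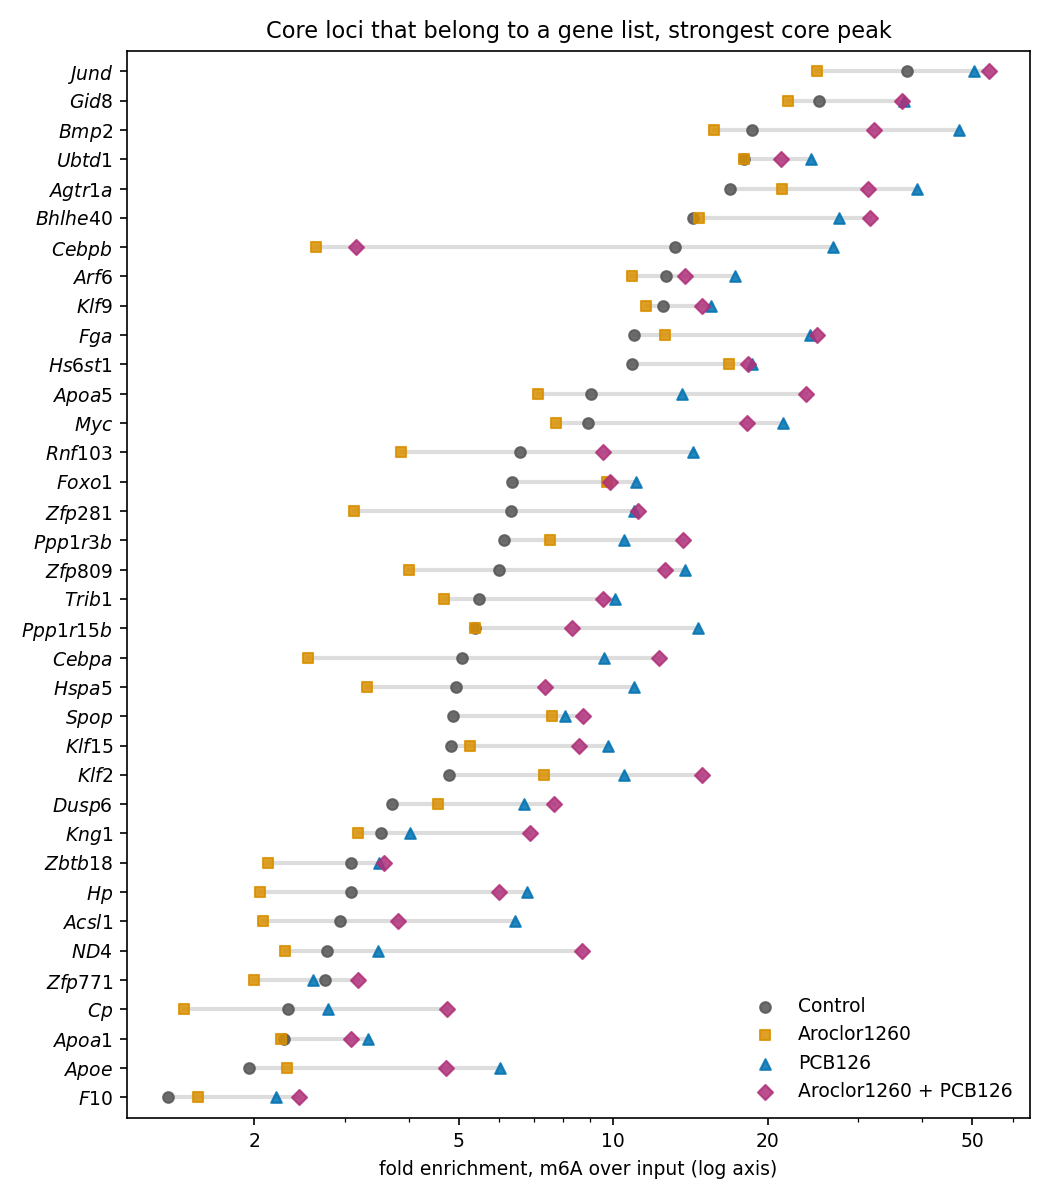
Fold enrichment (horizontal log axis) of the strongest core peak at the 36 core loci that belong to one of the gene lists, with 1 marker per list, ordered by the control value from 1.36 at F10 to 37.3 at Jund. At 34 of the 36 both lists with PCB126 lie right of both others, the exceptions being Cebpb, with 3.15 in the combination, and Zfp771, with 2.6 after PCB126.

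Several gene lists had no core member, which for lists of this size is near the background. Of the 21900 protein-coding genes in RefSeq, 135 had a core peak (0.616%) and 223 a control peak (1.02%), whether or not liver expresses them. None of 25 m6A machinery genes had a core peak, while 1 had a control peak and 3 had a PCB126 peak. None of 14 targets of the aryl hydrocarbon receptor had a peak in any of the 4 lists against input, and 1 had a peak in a list against IgG. Fatty acid oxidation had no core member among 29 genes, of which 3 had a control peak. Bile acid and transport genes (25) and long noncoding RNAs (16 found in RefSeq) had none, with 1 control-peak member each. Polycomb and chromatin genes (35) and RNA silencing and polyadenylation genes (21) had no control peak and so could have no core member. Of the cell type markers, Apoa1 was the 1 core locus among 6 hepatocyte markers, and Bmp2 the 1 among 6 endothelial markers. The markers of Kupffer cells (6 genes), stellate cells (6), cholangiocytes (5), T and NK cells (3), B cells (2) and neutrophils (3) had no core peak. Alb, a defining gene of hepatocytes, was not a core locus. A peak reports antibody enrichment and not the level of a transcript, and in a whole liver a shift in cell makeup and a shift within cells cannot be told apart.

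Many of the most extreme ratios to control lay at core peaks that were joined or divided in an exposed list. After Aroclor1260 the highest was 4.58, at the Rest peak of 101 bp, and the lowest were 0.187 at ENSMUSG00000093662, 0.2 at Cebpb and 0.201 at ENSMUSG00000043013. These 2 identifiers overlap each other and share their exposed peaks, of fold 1.33, 17.6 and 8.8, beside control values of 7.13 and 6.6. After PCB126 the highest was 9.59 at Mgat1, a glycosyltransferase of N-glycan maturation, where a control peak of 1.48 lay in a PCB126 peak of 14.2 and 1197 bp. Aldh8a1, a dehydrogenase gene, followed with 8.5, and Ptrh2, a mitochondrial peptidyl-tRNA hydrolase gene, with 8.35.

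Ptrh2 showed such joining plainly. The control had peaks of 1.64 and 10.7, Aroclor1260 had peaks of 3 and 12.4, and in both lists with PCB126 the pair was 1 peak of 448 bp with 13.7 and 17. The ratio of the weaker control peak was 10.4 after the combination, the highest there, and that of the stronger was 1.28 after PCB126. The lowest PCB126 ratio, 0.3, was at A1cf, an RNA-binding cofactor of apolipoprotein B editing, where the values were 7.7, 4, 2.31 and 5.95. This control peak spans 3 introns and met 2 PCB126 peaks, and the one of longest overlap read 2.31 while the other, which shares more exonic bases, read 10.9. The next was 0.607 at ENSMUSG00000036181 on chromosome 13, where the values were 15.3, 12.8, 9.29 and 25.3. The lowest combination ratio was the Cebpb value, 0.239, followed by 0.712 at Zbtb18. In none of the lists with PCB126 did more than 3 core peaks read at least 1.5 times below control.

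Next to Igfbp4, the smallest spreads were at Chchd10, a mitochondrial protein gene, with 1.5, 1.33, 1.33 and 1.42, and at Tle5, a corepressor gene, whose first of 3 core peaks read 1.39, 1.44, 1.66 and 1.72. These peaks were weak in every list. The lowest control fold was 1.17 at a 99 bp peak of Apol9b, an apolipoprotein L gene, followed by 1.18 at Clu, which encodes clusterin, and 1.21 at Ankrd40. The Apol9b peak read 1.67, 2.14 and 2.87 in the exposed lists, and the Clu peak 1.46, 1.55 and 1.86. At the edge of the rule, a core peak of Fam214a overlapped its combination peak by 1 bp, one of Aldh8a1 its Aroclor1260 peak by 1 bp, and one of Sod3 its PCB126 peak by 50 bp. Just outside, a control peak of Jund with a fold of 4.64 missed an Aroclor1260 peak by 46 bp, one of Pdia3 by 49 bp, and one each of ENSMUSG00000044068 and Pdp2 by 50 bp. A Foxo1 peak missed its combination peak by 50 bp. Of the control peaks that were not core, 216 were absent from the Aroclor1260 list alone, 10 from the PCB126 list alone and 15 from the combination list alone, so the shortest list set most of the membership.

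Core peaks were stronger and wider than the other 337 control peaks in the control list. Their median control fold was 2.94 beside 2, and their median width 339 bp beside 150 bp. They had more than 1 exonic block in 23.3% of cases (66 of 283, Wilson interval 18.8 to 28.6) beside 13.4% (45 of 337, 10.1 to 17.4). The rule asked for an overlap of spans with a called peak in every list, which wide, intron-spanning and strong peaks meet more easily. These differences were therefore partly fixed by the rule. The strand share was alike, with 90.8% and 92.6% on the plus strand. Along genes whose strand was known, the median position from 5′ to 3′ end of the gene span was 0.796 in core and in other control peaks. The last 20% of the span held 48.9% of 182 core peaks and 48.3% of 236 others. Of the 196 core peaks with a known gene strand, 14 lay on the opposite strand, all of them minus-strand peaks, and the sources used here do not say whether the libraries keep strand.

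The lists called against IgG did not enter the rule, although they use the same m6A libraries. Of the core peaks, 95.05% had an IgG-referenced peak of control liver, 90.1% one of Aroclor1260 liver, 98.9% one of PCB126 liver and 98.2% one from the combination. All 4 IgG lists held 240 core peaks (84.8%, Wilson interval 80.2 to 88.5), beside 141 of the 337 other control peaks (41.8%, 36.7 to 47.2). At those 240 the median IgG fold ratios to control were 0.965, 1.67 and 1.43, beside 0.952, 1.83 and 1.7 against input at the same sites. PCB126 was above control at 204 of the 240 and the combination at 177, so the order of the lists was the same with either reference and the combination's difference was smaller against IgG. Jund read 41.5, 36, 208 and 92.4 against IgG, where the PCB126 value was much the highest. Other strong loci differed less. Bmp2 read 37.5, 24.9, 40.6 and 39.1, with PCB126 and the combination near the control. The strongest Hs6st1 peak read 11.8, 18.3, 16.6 and 43.3, with PCB126 below Aroclor1260. Gid8 (32.2, 28.1, 37.7 and 48.5) and Fga (12.8, 15.7, 19.6 and 21.8) had both values with PCB126 above both others. Herc2, strong against input in every list, had no peak in any IgG list.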

How the data were processed

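The 44 libraries were 20 m6A, 20 input and 4 pooled IgG libraries. The submitters' processing notes name mm10, BWA 0.7.17, Trimmomatic, FastQC 0.10.1 and bcl2fastq 2.20.0.422, and the sources used here give no caller settings. Each of the 8 deposited lists held 1 treatment's peaks, titled as MeTPeak output. Per the file headers, the authors gave each peak a fold enrichment (a linear ratio), a p-value, and the log10 of its false discovery rate. These are the authors' values, used only to describe peaks.

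Coordinates were counted from 1. Where several exposed peaks overlapped a core peak, the one with the longest overlap, introns included, stood for it (ties by fold). The tables were made with pandas 2.3.3 in Python 3.11.15. Ensembl identifiers took the symbol of the GRCm38.p6 RefSeq gene holding at least 80% of their exonic peak bases, which named 1395 of 1512. Overlapping and antisense genes are uncertain. Overlap code was tested on simulated peaks. Named genes were the 10 loci with the highest geometric mean fold, the 5 with most core peaks, the extremes of ratio, spread, overlap and control fold, and core members of the gene lists; others are examples of role groups chosen after their values were seen. The members and lists were chosen with earlier results of these data known.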

Additional observations from a re-analysis of the deposited data

How the results depend on the processing

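No paired analysis was possible because each list pools the animals of a treatment, and for the same reason no replicate could be left out. The number of core peaks was 283; it was 122 with a reciprocal overlap of 50%, 64 with the 506 strongest peaks of each list, 955 among the lists called against IgG, and 156 when counted as loci with a peak in all 4 lists. Requiring exonic overlap, a fold of at least 2, a stricter false discovery rate or merged sites kept the count within 1.5 times. The number of merged sites was 220. No median fold ratio of PCB126 or the combination was at or below 1 under any alternative run. The fold ratio of PCB126 was 1.83 and was 1.71 with reciprocal overlap, 1.73 at merged sites, 1.67 against IgG, 1.62 with equal list lengths, 1.61 at equal widths and 1.67 at 1-to-1 sites. That of the combination was 1.71 and was 1.57, 1.64, 1.43, 1.58, 1.45 and 1.61 in the same order. That of Aroclor1260 was 0.958 and was 1.04 with equal list lengths. Choosing the exposed peak by shared exonic bases changed the fold at 5 core peaks (Elk4, Golga4, Rreb1, Cald1 and A1cf); the Aroclor1260 ratio became 0.971 and those of PCB126 and the combination stayed at 1.83 and 1.71. The width ratio of PCB126 was 1.49 and was 1.19 at merged sites, 1.17 against IgG and 1.027 at 1-to-1 sites; that of the combination was 1.33 and was 1.16, 1.065 and 1.00. The equal list lengths, equal widths, 1-to-1 sites and the choice by exonic bases were added after the data were seen. Causes of these shifts were not tested. Depth is unknown, so how far it sets fold, width and list length could not be measured.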
